A study of Mus musculus with 12 samples.

Results

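The effect of Tet2 deletion on the blood stem and progenitor cell fraction was read over 12 RNA-seq libraries, 6 in which floxed Tet2 had been deleted and 6 in which it had not. All 12 libraries of the series enter, and 13046 of the 15366 genes in the deposited table had enough signal to be tested. The cells were LSK cells, sorted from bone marrow of untreated C57BL/6 mice. They carry the stem cell markers Sca-1 and Kit, lack the markers of mature lineages, and hold blood stem cells and multipotent progenitors. The deleted libraries were 3 of Tet2 KO (Vav Cre with Tet2 flox/flox) and 3 of the double lesion (a Vav-driven human KDM6B transgene, Vav Cre and Tet2 flox/flox). The libraries without deletion were 3 of Vav Cre alone and 3 of KDM6B OE (the Vav-driven human KDM6B transgene, with no Cre named in the label). The transgene was therefore present in 3 libraries of each arm, and it entered the model as a second factor. Vav sequences drive expression throughout the blood lineage, so Cre is active in mature blood cells as well as in LSK cells. In the pair double lesion and KDM6B OE the deletion comes together with Cre, and an effect of Cre itself cannot be told apart from the deletion there. The labels give no age and no sex, and nothing in them names separate animals behind the libraries. The p-values therefore measure only the spread among these samples, and some of that may be technical.

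TET2 oxidises 5-methylcytosine in DNA, a step toward the loss of methylation at CpG dinucleotides, largely at enhancers. Loss of TET2 in blood stem cells is known to favour their expansion and a shift toward myeloid output, and TET2 is among the genes most often mutated in chronic myelomonocytic leukaemia.

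In the 6 deleted libraries, 23 genes were higher and 11 lower than in the 6 libraries without deletion, at an adjusted p under 0.05 from limma, a linear model fitted across all genes. That is 34 of 13046 genes tested (0.261%; 0.176% higher and 0.0843% lower). Of all tested genes, 53.3% had a positive difference, called or not. Most of the higher genes belonged to 3 groups: genes of chromosome 3, the chromosome of Tet2 itself; MHC class II antigen presentation genes; and interferon-inducible GTPases and sensors. The GTPase family among these was put together after its values were seen. The genes that fell were led by Tet2 and included Cdca3, Cdca8, Cenpm and Clspn, which act in cell division. Before these values, the promoters of the called genes are shown, because TET2 acts on CpG sites in DNA.

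The 250 bases before the RefSeq start site are printed for the genes of smallest p with an entry, higher (Fgf3 and Fam102b) and lower (Tet2 and Anxa9), with each CG dinucleotide in capitals, 5′ to 3′ on the strand of the gene (GRCm38.p6). Fgf3 lies at chr7:144838362-144838611 on the plus strand. The other 3 lie on the minus strand of chromosome 3, Fam102b at chr3:109027608-109027857, Tet2 at chr3:133544391-133544640 and Anxa9 at chr3:95307193-95307442.
Fgf3: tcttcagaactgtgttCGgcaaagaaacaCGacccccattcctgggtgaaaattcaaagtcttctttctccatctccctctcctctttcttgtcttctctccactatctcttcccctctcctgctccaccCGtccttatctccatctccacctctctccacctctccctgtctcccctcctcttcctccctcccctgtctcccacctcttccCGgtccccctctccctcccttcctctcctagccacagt
Fam102b: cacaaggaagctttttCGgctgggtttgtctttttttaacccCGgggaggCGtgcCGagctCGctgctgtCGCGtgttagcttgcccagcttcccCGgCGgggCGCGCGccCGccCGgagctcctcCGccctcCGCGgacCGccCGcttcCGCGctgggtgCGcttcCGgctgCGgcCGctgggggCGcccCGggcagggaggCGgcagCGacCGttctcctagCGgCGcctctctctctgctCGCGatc
Tet2: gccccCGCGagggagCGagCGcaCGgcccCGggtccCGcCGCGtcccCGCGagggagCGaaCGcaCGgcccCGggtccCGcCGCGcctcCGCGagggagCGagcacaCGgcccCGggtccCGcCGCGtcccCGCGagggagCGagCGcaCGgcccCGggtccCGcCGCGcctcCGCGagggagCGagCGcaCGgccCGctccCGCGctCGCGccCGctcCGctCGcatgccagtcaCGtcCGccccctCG
Anxa9: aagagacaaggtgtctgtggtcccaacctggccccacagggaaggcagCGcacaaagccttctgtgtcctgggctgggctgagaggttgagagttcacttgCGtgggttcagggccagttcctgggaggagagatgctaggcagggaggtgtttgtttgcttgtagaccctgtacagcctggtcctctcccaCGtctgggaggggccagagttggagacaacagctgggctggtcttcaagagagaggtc

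By the GENCODE positions given below, the windows of Fgf3 and Tet2 lie inside the gene, so the RefSeq and GENCODE starts differ there. The windows of Fgf3 and Anxa9 held 4 and 3 CG dinucleotides, against 34 for Fam102b and 51 for Tet2. Low and high CpG content were thus found among the genes of either direction. Over the 300-base RefSeq windows (250 bases before the start to 50 after it), the 18 called higher genes with an entry had a median of 6.5 CG dinucleotides and the 10 called lower genes a median of 16.5, against 20 over the 10185 tested genes with an entry. Of the called higher genes, 8 (44.4%) had at most 5, as did 2 of the called lower genes (20%), against 10.8% of all tested genes with an entry. These shares are a description of few genes, and the called lower genes include Tet2, the targeted gene. DNA methylation itself was not measured here.

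A pair of promoters of MHC class II genes, chosen after the values of these genes were seen, are shown for a motif that class II promoters share. The Y box, bound by the factor NF-Y, is printed in capitals (CTGATTGG, searched on both strands). It lay 51 bases before the start of H2-Aa (chr17:34287824-34288073, minus strand) and 62 bases before that of H2-Eb1 (chr17:34305617-34305866, plus strand). Of all 10185 promoter windows of tested genes, 6.05% held it, as did 3 of the 18 called higher genes (16.7%) and 1 of the 10 called lower genes (10%). H2-Aa and H2-Eb1 are among those 3 called higher genes, so their share was largely set by the choice of the motif and shows no enrichment. The motif contains the shorter CCAAT box (ATTGG on the opposite strand), which 38.9% of the called higher, 70% of the called lower and 38.8% of all tested genes held. A match is a run of letters and not a bound site. H2-Ab1 is named only.
H2-Aa: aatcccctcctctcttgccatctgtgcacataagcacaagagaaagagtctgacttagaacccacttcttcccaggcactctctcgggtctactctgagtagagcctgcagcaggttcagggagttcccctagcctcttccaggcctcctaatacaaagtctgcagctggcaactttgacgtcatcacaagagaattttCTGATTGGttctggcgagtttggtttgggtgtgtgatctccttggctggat
H2-Eb1: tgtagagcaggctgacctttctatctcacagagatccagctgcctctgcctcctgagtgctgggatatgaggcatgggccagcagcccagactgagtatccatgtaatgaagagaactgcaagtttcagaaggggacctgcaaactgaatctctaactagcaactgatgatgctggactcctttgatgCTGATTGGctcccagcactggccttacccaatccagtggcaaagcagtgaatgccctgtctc

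The targeted gene checks the labels. Tet2 (chromosome 3, 133463679 to 133545139; build GRCm38) had 31.6, 24.9 and 24.1 CPM (reads scaled by the authors' effective library size, in CPM units) in Tet2 KO and 37.2, 35.1 and 26.5 CPM in the double lesion. It had 82.9, 66.2 and 97.1 CPM in Vav Cre and 64.9, 87.6 and 84.5 CPM in KDM6B OE. Every deleted library lay below every library without deletion. The mean was 29.9 ± 5.56 CPM in the deleted libraries and 80.5 ± 12.6 CPM in the others (SD, n = 6 each), which leaves 37.1%. In an exact two-sided permutation test within transgene strata p was 0.005, the smallest that the 400 relabellings can give. The log2 difference was -1.41 ± 0.13 (SE; limma adjusted p = 0.000272). The remaining share was 32.7% in Tet2 KO relative to Vav Cre and 41.7% in the double lesion relative to KDM6B OE. The count covers the whole gene, so transcripts that lack only the deleted exons still count, and reads of Gm42567 on the opposite strand cannot be told apart in libraries without strand. Mouse Kdm6b, which is not targeted, was at 96.4% of its level in the libraries without deletion (exact permutation p = 0.725, two-sided).

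The libraries had 21935022 to 26263370 reads on listed genes in the deleted arm and 22256354 to 25922064 in the other, so that a gene without reads could still have a level of up to 0.139 CPM (3 reads). Kit, the receptor used in the sort, averaged 684 CPM in deleted libraries and 496 CPM in the others, and Ly6a, which encodes Sca-1, 120 and 94.0 CPM. All 36 genes of a stem cell identity list were in the table. Several libraries stood apart. Transcripts of the Y chromosome were present in 3 deleted libraries (Tet2 KO 1, double lesion 1 and 3) and in 1 of the others (Vav Cre 1). Tet2 KO 2 had a summed level of plasma cell genes of 8353 CPM, against at most 1937 CPM in any other library, and double lesion 1 had 5471 CPM of eosinophil, mast cell and basophil genes, against at most 2873 CPM in any other. The median SD of log2(CPM + 1) over genes was 0.209 in Tet2 KO and 0.151 in the double lesion, against 0.28 in Vav Cre and 0.148 in KDM6B OE. In this bulk RNA, more cells of a type and more RNA per cell cannot be told apart.

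**Figure D1:**
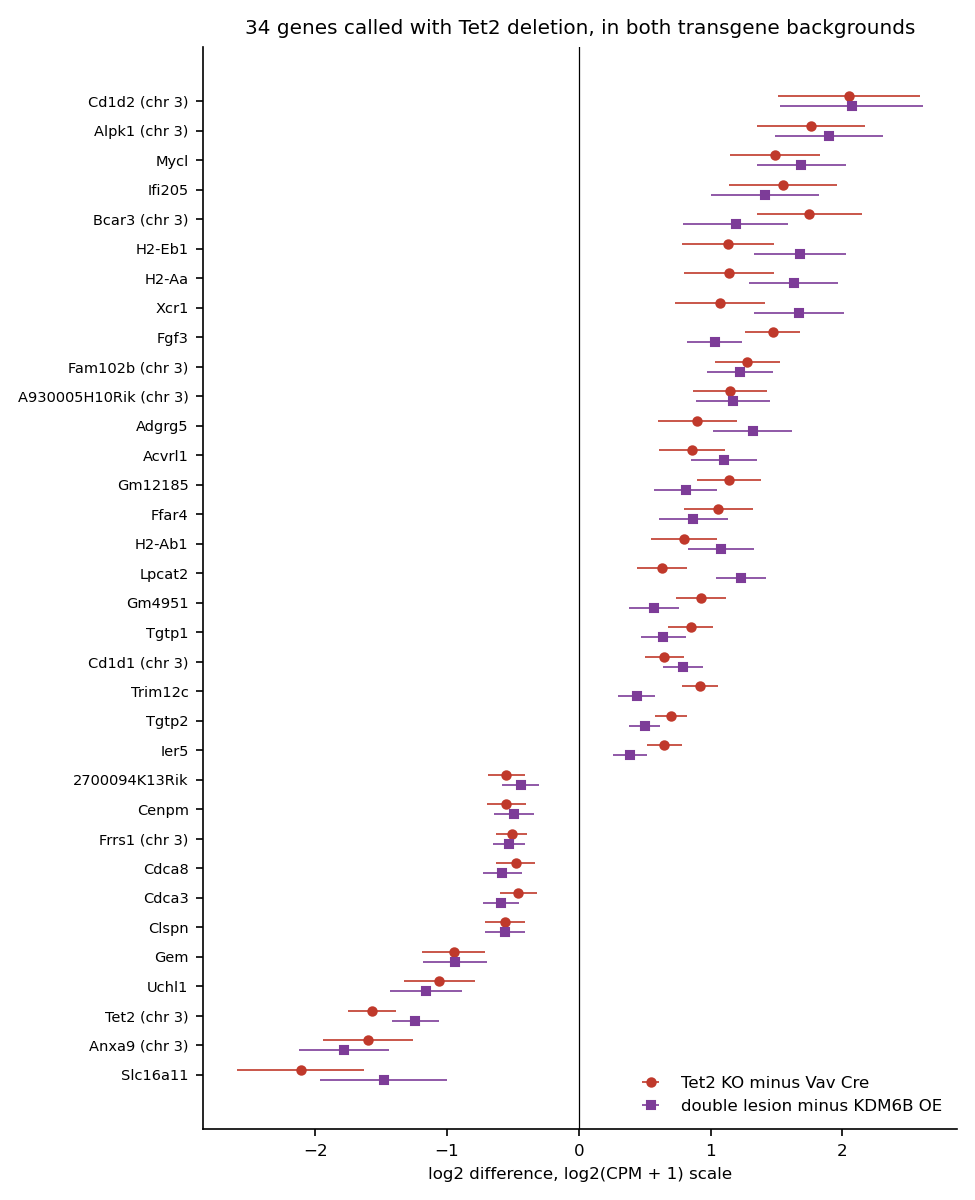
Log2 differences on the log2(CPM + 1) scale (x axis) of the 34 called genes (y axis), as Tet2 KO minus Vav Cre (circles) and double lesion minus KDM6B OE (squares), each with its SE (3 libraries against 3). All 34 genes lie on the same side of 0 in both backgrounds, from Cd1d2 at 2.05 and 2.07 to Slc16a11 at -2.11 and -1.48.

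The same comparison can be made without the transgene (Tet2 KO against Vav Cre) and with it (double lesion against KDM6B OE), in libraries that do not overlap. All 34 called genes had the same sign in both, which their choice on the pooled fit favours. Across all 13046 tested genes the log2 differences of the 2 backgrounds had a Pearson correlation of 0.329, and 62.5% of genes had the same sign; genes are not independent replicates. Of 30 genes with an unadjusted p under 0.001 in the double lesion against KDM6B OE, 30 had the same sign in Tet2 KO against Vav Cre, where their median difference in that direction was 0.785, beside 1.22 in the comparison that chose them. Of 72 genes chosen in the same way in Tet2 KO against Vav Cre, 56 (77.8%) had the same sign in the double lesion against KDM6B OE, with medians of 0.204 there and 0.929 where they were chosen. Read singly, the backgrounds gave few calls in the fit of 4 group means, which shares 1 estimate of the spread over all 12 libraries. Tet2 KO against Vav Cre gave 4 (0.0307%; 1760 genes or 13.5% at an unadjusted p under 0.05). The double lesion against KDM6B OE gave 0 calls (0%), with 771 genes (5.91%) at an unadjusted p under 0.05. In separate fits, each background had its own estimate of the spread. There the 6 libraries without the transgene gave 0 calls (838 genes at an unadjusted limma p under 0.05) and the 6 with it 70. What reverses the order of the backgrounds between these fits was not tested.

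Whether the Tet2 difference depended on the transgene was tested with the interaction term of the same fit. No gene was called by limma (0 of 13046, 0%; smallest adjusted p 0.753), and 578 genes (4.43%) had an unadjusted p under 0.05. On whole reads recovered from the values, edgeR also called 0 genes and DESeq2 called 5. Among the 34 genes called for Tet2, Trim12c had the smallest interaction p (unadjusted 0.0262, limma adjusted p = 0.999), with log2 differences of 0.44 ± 0.14 with the transgene and 0.92 ± 0.14 without it (SE). Lpcat2 had the opposite order, at 1.23 ± 0.19 with the transgene and 0.63 ± 0.19 without it (limma adjusted p = 0.999 for the interaction).

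Chromosome 3 held 9 of the 34 called genes among its 617 tested genes (1.46%), and 8 of 616 besides Tet2 (1.3%). The other chromosomes held 25 of 12314 (0.203%). Besides Tet2, 6 were higher (Alpk1, Bcar3, A930005H10Rik, Fam102b, Cd1d1 and Cd1d2) and 2 lower (Frrs1 and Anxa9). All 8 lay at smaller coordinates than Tet2, at 5.8 Mb (Alpk1) to 46.5 Mb (Cd1d1 and Cd1d2) from it. The tested genes ran from -127.9 Mb (Pex2) to 26.4 Mb (Wls) from Tet2, and most of them also lay at smaller coordinates. By distance from Tet2, 1 of 62 tested genes within 10 Mb was called, 4 of 94 from 10 to 25 Mb (4.26%), 3 of 279 from 25 to 50 Mb, and 0 of 59 and 0 of 122 farther away. The floxed allele and the DNA linked to it come with the deletion in both deleted groups, so an effect of Tet2 loss and of linked DNA cannot be told apart for these genes.

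**Figure D2:**
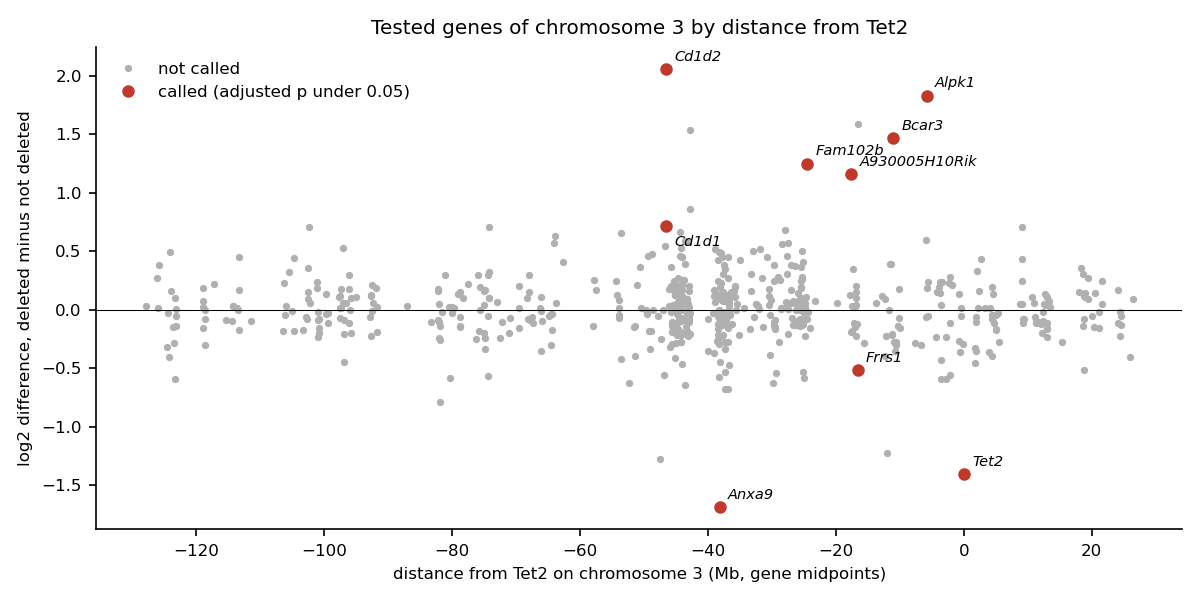
Log2 difference (y axis, deleted minus not deleted) of the 617 tested genes of chromosome 3 by the distance of their midpoints from Tet2 in Mb (x axis), with called genes in red and the others in grey. The called genes lie at Tet2 and on 1 side of it, out to 46.5 Mb, and include 6 higher and 2 lower genes besides Tet2. Most tested genes lie on that same side.

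Of the higher genes, Alpk1, a kinase that senses a bacterial sugar metabolite and activates NF-kB, lies nearest to Tet2 (chromosome 3, 127670310 to 127780527). It had 50.8, 27.5 and 36 CPM in Tet2 KO libraries and 57.8, 54.4 and 46.2 CPM in double lesion libraries. It had 12.4, 9.29 and 9.09 CPM in Vav Cre and 33.9, 9.83 and 6.83 CPM in KDM6B OE. KDM6B OE 1 lay among the deleted libraries, and the other 5 lay below all of them. The log2 difference was 1.83 ± 0.28 (SE, limma adjusted p = 0.014), and 2.11 without KDM6B OE 1 (limma adjusted p = 0.00017). Fam102b (108970997 to 109027607) had 70.8, 54.1 and 44.5 CPM in Tet2 KO libraries and 65.8, 71.2 and 70 CPM in double lesion libraries. It had 21.4, 21.1 and 24.4 CPM in Vav Cre and 48.3, 23.9 and 20.9 CPM in KDM6B OE. Again KDM6B OE 1 alone reached the deleted range. The difference of 1.25 ± 0.17 (limma adjusted p = 0.00796) became 1.41 without that library (limma adjusted p = 0.000153).

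Cd1d1 and Cd1d2 encode the CD1d molecules, of which CD1d1 presents lipids to NKT cells, and they are neighbours alike in sequence, so reads may be split between them. Cd1d1 (86995834 to 86999441) had 108 to 162 CPM in deleted libraries (median 135) and 60.2 to 106 CPM in the others (median 79.4), a log2 difference of 0.72 ± 0.11 (limma adjusted p = 0.0128). Cd1d2 (86986551 to 86989780) had 36.7, 43.1 and 21.4 CPM in the Tet2 KO libraries and 39.2, 39.3 and 31.7 CPM in those of the double lesion. It had 17.2, 4.3 and 4.44 CPM in Vav Cre and 21.7, 3.81 and 5.54 CPM in KDM6B OE. The log2 difference of 2.06 ± 0.36 was the largest among the 23 higher genes (limma adjusted p = 0.0298), with Tet2 KO 3 and KDM6B OE 1 at nearly the same level, 21.4 and 21.7 CPM. The call of Cd1d2 held in 4 of the 12 fits that left out a library, with adjusted p-values of 0.00688 to 0.092, and edgeR gave 0.098.

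Bcar3, an adaptor of Cas family proteins in integrin signalling (122294136 to 122530191), had 4.89 to 13.1 CPM in deleted libraries (median 6.58) and 0.382 to 3.61 CPM in the others (median 3.17), with no overlap. Its difference was 1.47 ± 0.28 (limma adjusted p = 0.041). The call did not hold without KDM6B OE 1 (1.5, limma adjusted p = 0.0661) or without Tet2 KO 3 (1.48, limma adjusted p = 0.0757), and it held in 2 of the 12 fits that left out a library. A930005H10Rik, a non-coding transcript whose locus overlaps Dph5 on the opposite strand (115881581 to 115888130), had 41.1 to 81.1 CPM in deleted libraries and 19.24 to 39.2 CPM in the others, a difference of 1.16 ± 0.19 (limma adjusted p = 0.0208).

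The lower genes of chromosome 3 were Anxa9 and Frrs1. Anxa9, a member of the annexin family of membrane-binding proteins (95296096 to 95307176, overlapping Mindy1 on the opposite strand), had 4.29, 4.26 and 13.1 CPM in the Tet2 KO libraries and 5.41, 4.23 and 5.64 CPM in those of the double lesion. It had 15.7, 21.7 and 27.6 CPM in Vav Cre and 17.7, 23.8 and 18.5 CPM in KDM6B OE. The groups did not overlap, and the difference was -1.69 ± 0.23 (limma adjusted p = 0.00796), or -1.91 without Tet2 KO 3 (limma adjusted p = 0.000289). Frrs1, a membrane ferric reductase (116859464 to 116908177), had 95.1 to 127 CPM in deleted libraries and 129 to 160 CPM in the others, a difference of -0.52 ± 0.08 (limma adjusted p = 0.0164).

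The same libraries stood closest to the opposite arm at most of these genes. KDM6B OE 1 was the library without deletion nearest to the deleted range for 6 of the 8 genes besides Tet2, and Tet2 KO 3 the deleted library nearest to the others for 7 of 8. Each was also the nearest for some called genes of other chromosomes, such as Tgtp2 (96.8 CPM in KDM6B OE 1 and 118 CPM in Tet2 KO 3). Both had Tet2 levels of their own arm, 24.1 CPM in Tet2 KO 3 and 64.9 CPM in KDM6B OE 1. Genes of chromosome 3 that missed the threshold were looked at too. The examples given here were chosen after their values were seen, so they only illustrate the pattern. Others near the threshold are not given by library, such as Cers2 (log2 difference -0.44, limma adjusted p = 0.0507) and P2ry14 (-0.57, limma adjusted p = 0.0768), both without overlap between the arms. Cnn3, an actin-binding calponin, had 78.1 CPM in Tet2 KO 3 against 23.5 to 56.5 CPM in the other deleted libraries, and 44.5 CPM in KDM6B OE 1 against 72.7 to 170 CPM in the others without deletion (log2 difference -1.22, limma adjusted p = 0.0507). Sh3d19 had 8.99 CPM in Tet2 KO 3 and 3.57 CPM in KDM6B OE 1 (-1.28, limma adjusted p = 0.0908), and Palmd 0.994 and 2.73 CPM (1.59, limma adjusted p = 0.0618). What sets these libraries apart was not tested. With all genes of chromosome 3 left out and p-values adjusted over the rest, 12 genes were called, 10 higher and 2 lower, and all 12 were among the 25 called on other chromosomes.

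**Figure D3:**
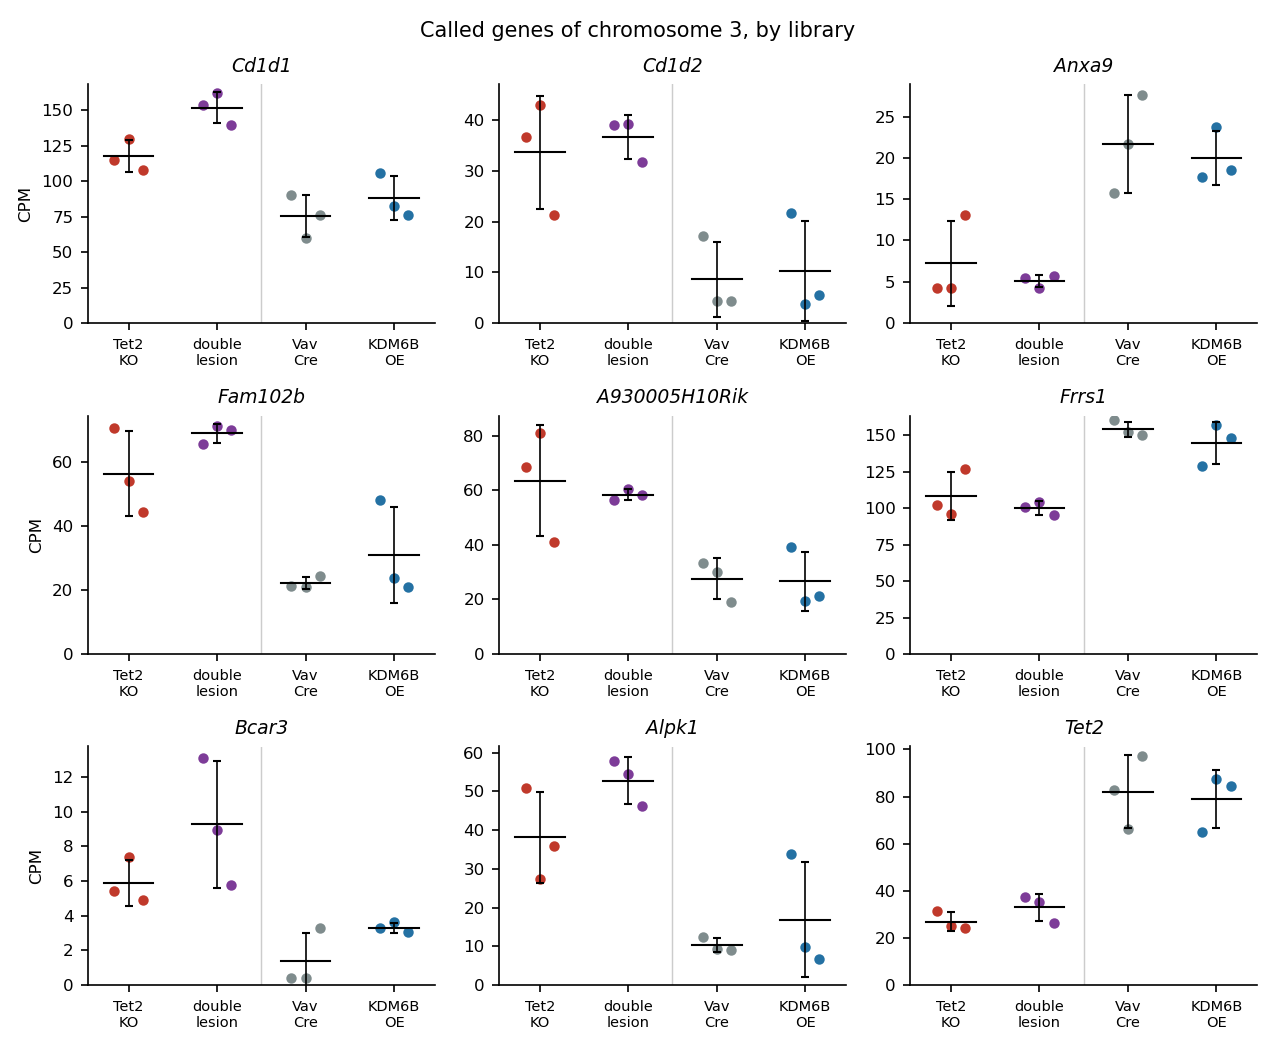
CPM (y axis) of the 9 called genes of chromosome 3 in each library, with points for the 3 libraries of a group, a black line for the mean and whiskers for 1 SD, deleted groups left of the grey line. KDM6B OE 1 is the high point of that group for Fam102b (48.3 CPM) and Alpk1 (33.9 CPM), and Tet2 KO 3 the high point of its group for Anxa9 (13.1 CPM).

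H2-Aa, H2-Eb1 and H2-Ab1, which encode chains of MHC class II, were higher with Tet2 deletion. Class II molecules present peptides to CD4 T cells and are controlled by the coactivator CIITA. H2-Aa, the I-A alpha chain (chromosome 17, 34282744 to 34287823), had 135, 117 and 94.9 CPM in the Tet2 KO libraries and 204, 189 and 153 CPM in those of the double lesion. It had 95.7, 52.9 and 26.4 CPM in Vav Cre and 69.8, 63.8 and 43.0 CPM in KDM6B OE. Apart from Vav Cre 1, which lay just above Tet2 KO 3, the libraries without deletion lay below the deleted ones, and the difference was 1.39 ± 0.24 (SE, limma adjusted p = 0.0254). H2-Eb1, the I-E beta chain (34305867 to 34316674), had 68.7 to 140 CPM in deleted libraries (median 104) and 18.1 to 68.2 CPM in the others (median 42.8), a difference of 1.40 ± 0.25 (limma adjusted p = 0.0298). H2-Ab1, the I-A beta chain (34257689 to 34269419), had 201 to 328 CPM (median 259) in deleted libraries and 79.8 to 214 CPM (median 138) in the others, a difference of 0.94 ± 0.17 (limma adjusted p = 0.0393). These 3 were the only called members of a list of antigen presentation genes with 25 tested members (0.176% called higher over all tested genes). None was called lower, and 22 had a positive difference, against 53.3% of all tested genes. The median was 0.272, against 0.016 over all tested genes. Cd74, the invariant chain that accompanies class II molecules, averaged 534 CPM in deleted libraries and 180 CPM in the others (1.49 ± 0.30) and just missed the threshold (limma adjusted p = 0.0507). Ciita averaged 7.51 and 3.12 CPM (1.05 ± 0.27, limma adjusted p = 0.108). The calls of H2-Aa, H2-Eb1 and H2-Ab1 held in 5, 4 and 3 of the 12 fits that left out a library, and edgeR gave adjusted p-values of 0.059, 0.059 and 0.0751. With a sex term in the model the call of H2-Ab1 was lost (0.84, limma adjusted p = 0.061).

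Markers of cells that carry class II moved with these genes in part. A B cell list, of whose 23 genes 20 were in the table, summed to 403 to 1432 CPM in deleted libraries and 278 to 435 CPM in the others. Cd74 belongs to that list: the mean sums were 762 and 342 CPM, of which Cd74 gave 534 and 180 CPM. Of the other members, Ms4a1, which encodes CD20, averaged 6.70 CPM in deleted libraries and 1.86 CPM in the others, while Cd79b averaged 70.2 and 71.3 CPM. Pax5, which defines B cells, was at 0 in 9 of the 12 libraries. No tested member of the list was called (0 of 18; median 0.408, 17 positive). A dendritic cell list, all 23 genes of it in the table, summed to 1101 to 1723 CPM in deleted libraries and 1342 to 1981 CPM in the others. Its mean sums were 1360 and 1615 CPM, of which Dntt, also on the early lymphoid list, gave 521 and 763 CPM. Of the 22 tested genes of the dendritic cell list, 15 had a positive difference, with a median of 0.223. A monocyte and macrophage list (35 genes) summed to 2106 to 3115 CPM against 1874 to 2478 CPM. The part of these cell types in the class II difference was not tested; without Tet2 KO 2, which had the highest B cell sum, the difference was 1.41 for H2-Aa (limma adjusted p = 0.062), 1.38 for H2-Eb1 (0.0806) and 0.91 for H2-Ab1 (0.0877).

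**Figure D4:**
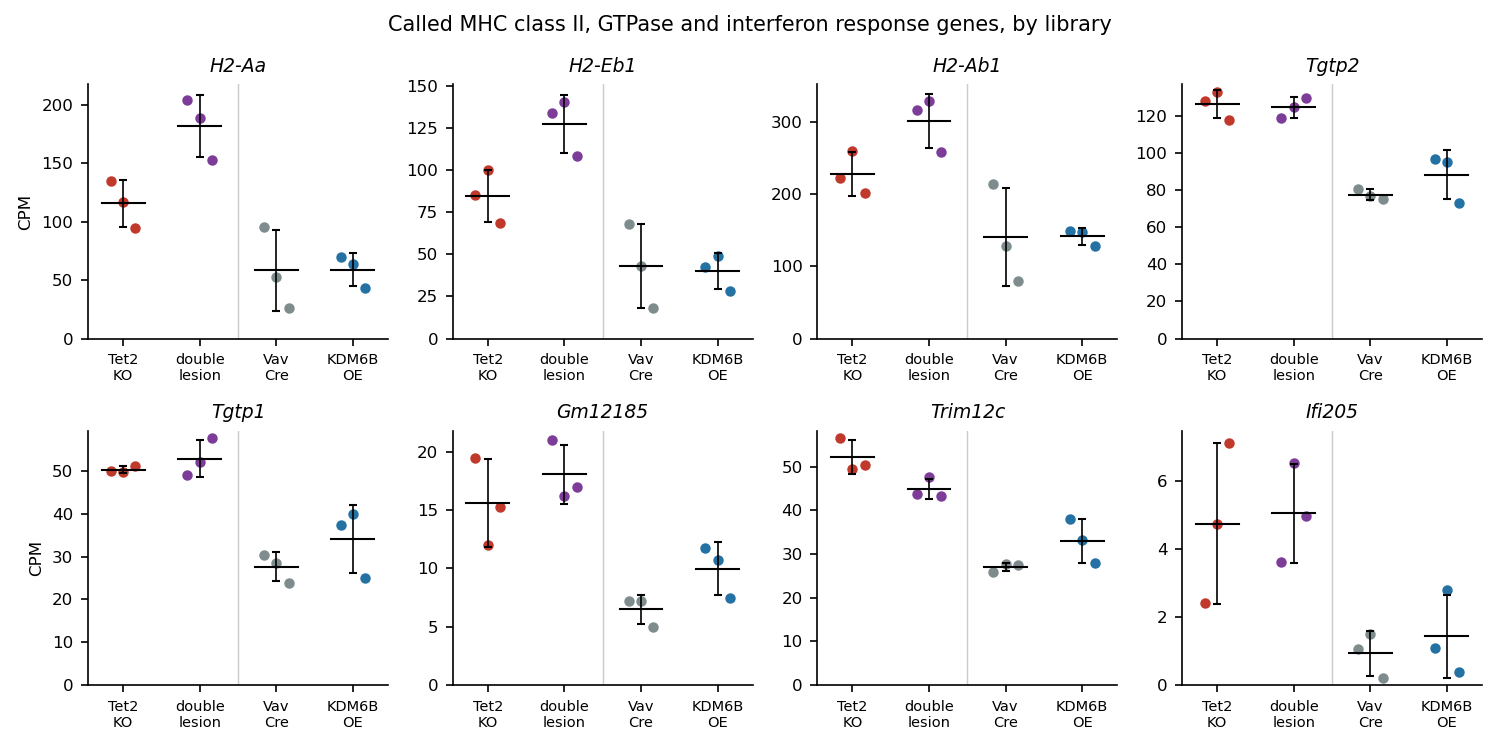
CPM (y axis) of called MHC class II, GTPase and interferon response genes in each library, with points for the 3 libraries of a group, a black line for the mean and whiskers for 1 SD, deleted groups left of the grey line. Tgtp2, Tgtp1, Gm12185, Trim12c and H2-Eb1 do not overlap between the 6 deleted libraries and the other 6, whereas H2-Aa, H2-Ab1 and Ifi205 do.

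Immunity-related GTPases, interferon-inducible proteins that attack vacuoles of intracellular pathogens, had 4 called members, all higher with Tet2 deletion. The family was put together after its values were seen, from 14 genes named as members, of which 13 were tested. Of these, 4 were called higher (Tgtp2, Tgtp1, Gm12185 and Gm4951) and none lower, against 0.176% called higher over all tested genes. All 13 had a positive difference, against 53.3% of all tested genes, and the median was 0.6, against 0.016. The summed level ran from 790 to 901 CPM in deleted libraries and from 457 to 691 CPM in the others, with no overlap. As the family was chosen with these values known, its counts, median and sums only describe it and show no enrichment. Tgtp2 (chromosome 11, 49057194 to 49064206) had 128, 133 and 118 CPM in the Tet2 KO libraries and 119, 125 and 130 CPM in those of the double lesion. It had 80.9, 76.7 and 75.4 CPM in Vav Cre and 96.8, 95.3 and 73 CPM in KDM6B OE. All deleted libraries lay above all others, and the difference was 0.60 ± 0.08 (limma adjusted p = 0.00796), called in each of the 12 fits that left out a library. Tgtp1 (48985327 to 48994172) had 49.0 to 57.7 CPM in deleted libraries and 23.9 to 40.0 CPM in the others (0.74 ± 0.12, limma adjusted p = 0.0184). Gm12185 (48904656 to 48992226), whose locus overlaps Tgtp1 on the same strand, had 12 to 21 CPM and 5.01 to 11.8 CPM (0.97 ± 0.17, limma adjusted p = 0.027). Tgtp1 and Tgtp2 are near-identical copies, and the counting may have split their reads, so each value alone is uncertain. Gm4951 (chromosome 18, 60212080 to 60247820) had 24.7 to 35.3 CPM in deleted libraries and 14.0 to 23.1 CPM in the others (0.75 ± 0.14, limma adjusted p = 0.0366). Of the members that were not called, Iigp1 averaged 77.3 CPM in deleted libraries and 46.1 CPM in the others (0.77 ± 0.16, limma adjusted p = 0.0589), and Irgm1, a regulator of the family, 237 and 173 CPM (0.47 ± 0.10, limma adjusted p = 0.0761), without overlap between the arms.

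A wider interferon response list, which shares Igtp, Irgm1 and Iigp1 with that family, had 2 of 66 tested genes called higher (0.176% over all tested genes) and none lower. Its median difference was 0.238, against 0.016 over all tested genes, and 58 genes had a positive sign, against 53.3% of all tested genes. The list's median was 0.377 in Tet2 KO against Vav Cre and 0.087 in the double lesion against KDM6B OE; that contrast between backgrounds was not tested as a list. Trim12c, a tripartite motif protein of an antiviral gene cluster (chromosome 7, 104338754 to 104353362), had 43.3 to 56.6 CPM in deleted libraries (median 48.5) and 25.9 to 38.0 CPM in the others (median 27.8), a difference of 0.68 ± 0.11 (limma adjusted p = 0.0208). Ifi205, a member of the DNA-sensing Ifi200 family whose copies are alike in sequence (chromosome 1, 174011998 to 174031810), had 2.40 to 7.12 CPM and 0.22 to 2.79 CPM, a difference of 1.48 ± 0.28 (limma adjusted p = 0.0414). Its call held in 3 of the 12 fits that left out a library. Among 46 tested innate immune and NF-kB genes none was called, with a median of 0.23 and 35 positive. S100a9, a calcium-binding protein of neutrophils and monocytes, had the smallest p there, at 4.81 CPM in deleted libraries and 1.19 CPM in the others (1.54 ± 0.34, limma adjusted p = 0.0768). Cd83, an activation marker of antigen-presenting cells, followed at 8.90 and 2.22 CPM (1.54 ± 0.35) with the same adjusted p.

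Of the remaining genes that rose, Fgf3 had the smallest p after Tet2. Fgf3, a secreted fibroblast growth factor best known from inner ear development (chromosome 7, 144838083 to 144844436), had 26.9, 28.3 and 26.5 CPM in the Tet2 KO libraries and 29.3, 23.4 and 19.06 CPM in those of the double lesion. It had 12.1, 9.15 and 6.99 CPM in Vav Cre and 9.64, 10.9 and 12.9 CPM in KDM6B OE. The arms did not overlap, the mean ratio was 2.49, and the difference of 1.25 ± 0.16 (limma adjusted p = 0.00633) was called in each of the 12 fits that left out a library and by edgeR (adjusted p = 0.0069). Mycl, the MYC family transcription factor L-MYC (chromosome 4, 122995652 to 123002485), had 2.57, 2.27 and 4.41 CPM in the Tet2 KO libraries and 5.18, 5.51 and 3.19 CPM in those of the double lesion. It had 0.976, 0.183 and 0.22 CPM in Vav Cre and 0.132, 1.48 and 0.78 CPM in KDM6B OE. Again no library overlapped, although the levels were low (1.59 ± 0.24, limma adjusted p = 0.0128). Lpcat2, a lysophospholipid acyltransferase that makes platelet-activating factor (chromosome 8, 92855339 to 92919279), had 47.1 to 75.1 CPM in deleted libraries and 21.7 to 40.7 CPM in the others (0.93 ± 0.15, limma adjusted p = 0.0208).

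Xcr1, the chemokine receptor of cross-presenting dendritic cells (chromosome 9, 123852315 to 123862029), had 2.92 to 11.2 CPM in deleted libraries (median 6.89) and 1.09 to 2.63 CPM in the others (median 2.33), a difference of 1.37 ± 0.24 (limma adjusted p = 0.03) with no overlap. It was the only called gene of 22 tested in the dendritic cell list, whose median was 0.223. Clec9a, a marker of the same dendritic cells, averaged 3.16 CPM in deleted libraries and 2.29 CPM in the others, and Clec10a 2.21 and 4.96 CPM (-0.82 ± 0.28, limma adjusted p = 0.205). Ier5, an immediate early gene (chromosome 1, 155096361 to 155099636), had 27, 27.3 and 24.2 CPM in Tet2 KO libraries against 16.3, 16.6 and 15.9 CPM in Vav Cre, and 54.8, 62.7 and 66.8 CPM in the double lesion against 46.8, 43.5 and 49.2 CPM in KDM6B OE. Its arms overlap when pooled and do not overlap within either background (0.52 ± 0.10, limma adjusted p = 0.0391). The call held in 1 of the 12 fits that left out a library. The whole immediate early list, 39 of 40 genes in the table, lay far apart between libraries with and without the transgene, which the second factor of the model takes up: it summed to 2837 to 4880 CPM in the Tet2 KO libraries and 2552 to 4223 CPM in Vav Cre, and to 10049 to 14247 CPM in those of the double lesion and 9993 to 13677 CPM in KDM6B OE.

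Acvrl1, Adgrg5 and Ffar4 were called at levels of a few reads in the libraries without deletion. They passed the filter (above 1 CPM in at least 3 libraries) only through deleted libraries, so the filter itself favoured a higher call for them. Mycl, too, would not have passed it on the libraries without deletion alone. All 34 calls held in a fit without the filter. Acvrl1, the TGF-beta family receptor ALK1 (chromosome 15, 101128522 to 101145336), had 0.509 to 2.19 CPM in deleted libraries and 0 to 0.352 CPM in the others (0.98 ± 0.18, limma adjusted p = 0.0365). Adgrg5, an adhesion G protein-coupled receptor (chromosome 8, 94923694 to 94943280), had 0.343 to 2.38 CPM and was at 0 in all libraries without deletion but KDM6B OE 2, at 0.369 CPM (1.11 ± 0.21, limma adjusted p = 0.041). Ffar4, a receptor for long-chain fatty acids (chromosome 19, 38097071 to 38114263), had 0.895 to 1.51 CPM and 0 to 0.528 CPM (0.97 ± 0.18, limma adjusted p = 0.0409). The size of these differences depends on the 1 CPM added before the logarithm, and their calls held in 3, 2 and 1 of the fits that left out a library.

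Genes that fell with Tet2 deletion, outside chromosome 3, were Uchl1, Gem, Slc16a11, 2700094K13Rik and genes of the cell cycle. Uchl1, a deubiquitinase abundant in neurons (chromosome 5, 66676091 to 66687234, with Uchl1os on the opposite strand), had 2.45 to 5.83 CPM in deleted libraries and 7.21 to 10.6 CPM in the others, without overlap (-1.11 ± 0.18, limma adjusted p = 0.0208). Gem, a small GTPase that inhibits calcium channels (chromosome 4, 11704457 to 11714752), had 19.8, 14.5 and 17.4 CPM in Tet2 KO libraries against 49.7, 24.2 and 32.7 CPM in Vav Cre, and 33.2, 30.1 and 34.9 CPM in the double lesion against 84.7, 48.3 and 63.0 CPM in KDM6B OE. Within each background the deleted libraries lay below the others (-0.95 ± 0.17, limma adjusted p = 0.0298). Slc16a11, a monocarboxylate transporter family member (chromosome 11, 70212752 to 70216417), had 0.278 to 2.84 CPM and 3.16 to 12.6 CPM (-1.79 ± 0.34, limma adjusted p = 0.0406). 2700094K13Rik (chromosome 2, 84669215 to 84670770), which encodes selenoprotein H, had 102 to 159 CPM in deleted libraries and 138 to 271 CPM in the others (-0.49 ± 0.10, limma adjusted p = 0.0462).

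The called cell cycle genes fell by similar amounts. Cdca3, which promotes the degradation of mitotic regulators (chromosome 6, 124829547 to 124833701), averaged 141 ± 11.7 CPM in Tet2 KO libraries against 196 ± 28.7 CPM in Vav Cre, and 77.9 ± 12.3 CPM in the double lesion against 118 ± 15.3 CPM in KDM6B OE (SD, n = 3 each; log2 difference -0.53 ± 0.10, limma adjusted p = 0.0406). Cdca8, which encodes borealin of the chromosomal passenger complex (chromosome 4, 124918465 to 124939311), averaged 242 ± 24.3 CPM in Tet2 KO libraries against 340 ± 47.9 CPM in Vav Cre, and 159 ± 27.8 CPM in the double lesion against 238 ± 29.3 CPM in KDM6B OE (-0.53 ± 0.10, limma adjusted p = 0.0409). Both were lower in the double lesion than in Tet2 KO and lower in KDM6B OE than in Vav Cre. The pooled arms therefore overlap while the arms within a background do not. Cenpm, a centromere protein (chromosome 15, 82233779 to 82244748), had 40.5 to 69.6 CPM in deleted libraries and 58.2 to 115 CPM in the others (-0.52 ± 0.10, limma adjusted p = 0.0462). Clspn, the replication checkpoint adaptor claspin (chromosome 4, 126556935 to 126593903), had 30.8 to 49.2 CPM and 49.8 to 74.7 CPM, without overlap (-0.56 ± 0.10, limma adjusted p = 0.0406). The calls of Clspn, Cdca8, Cdca3 and Cenpm held in 3, 4, 2 and 1 of the 12 fits that left out a library, and edgeR's adjusted p was 0.0509 for Clspn and 0.059 for the other 3. None of the 4 was called with a sex term in the model (limma adjusted p = 0.0622 for Clspn, 0.0666 for Cdca3 and Cdca8 and 0.0752 for Cenpm) or with 4 group means (0.0564 to 0.0642). Y chromosome transcripts, as given above, were present in 3 deleted libraries (Tet2 KO 1, double lesion 1 and 3) and in Vav Cre 1.

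The G2 and M phase list had 0 of 53 tested genes called higher and 2 lower (0.176% and 0.0843% over all tested genes). Its median difference was -0.366, against 0.016 over all tested genes. Of the 53 genes, 0 had a positive difference, and 43 had an unadjusted p under 0.05 with a lower level, against 1006 of 13046 over all genes. The list's median was -0.253 without the transgene and -0.499 with it. Its summed level ran from 8683 to 10456 CPM in Tet2 KO libraries against 10779 to 12954 CPM in Vav Cre, and from 5065 to 7162 CPM in the double lesion against 8245 to 9500 CPM in KDM6B OE. The arms did not overlap within either background. The members next to the threshold were Ube2c (-0.65 ± 0.14), Cenpf (-0.50 ± 0.11) and Top2a (-0.42 ± 0.10), all at a limma adjusted p of 0.0768. Of 45 tested S phase genes, Clspn alone was called, with a list median of -0.166 and 8 positive genes.

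Genes of protein synthesis and energy metabolism lay below 0 as lists, with no called member. Of 80 tested cytosolic ribosomal protein genes, 1 had a positive difference, and the median was -0.291. Their summed level was 33267 to 43568 CPM in Tet2 KO libraries against 41002 to 58753 CPM in Vav Cre, and 27866 to 31892 CPM in the double lesion against 33356 to 36926 CPM in KDM6B OE. Vav Cre 2 held the highest of these sums. Rps2 was the member of smallest p (-0.39 ± 0.09, limma adjusted p = 0.0912). The median was -0.226 over 79 nuclear-encoded respiratory chain genes, of which 3 were positive, and -0.21 over 74 mitochondrial ribosomal proteins, of which 4 were positive. Of 52 tested histone genes, none was called, and the median was -0.586 in Tet2 KO against Vav Cre and 0.235 in the double lesion against KDM6B OE.

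**Figure D5:**
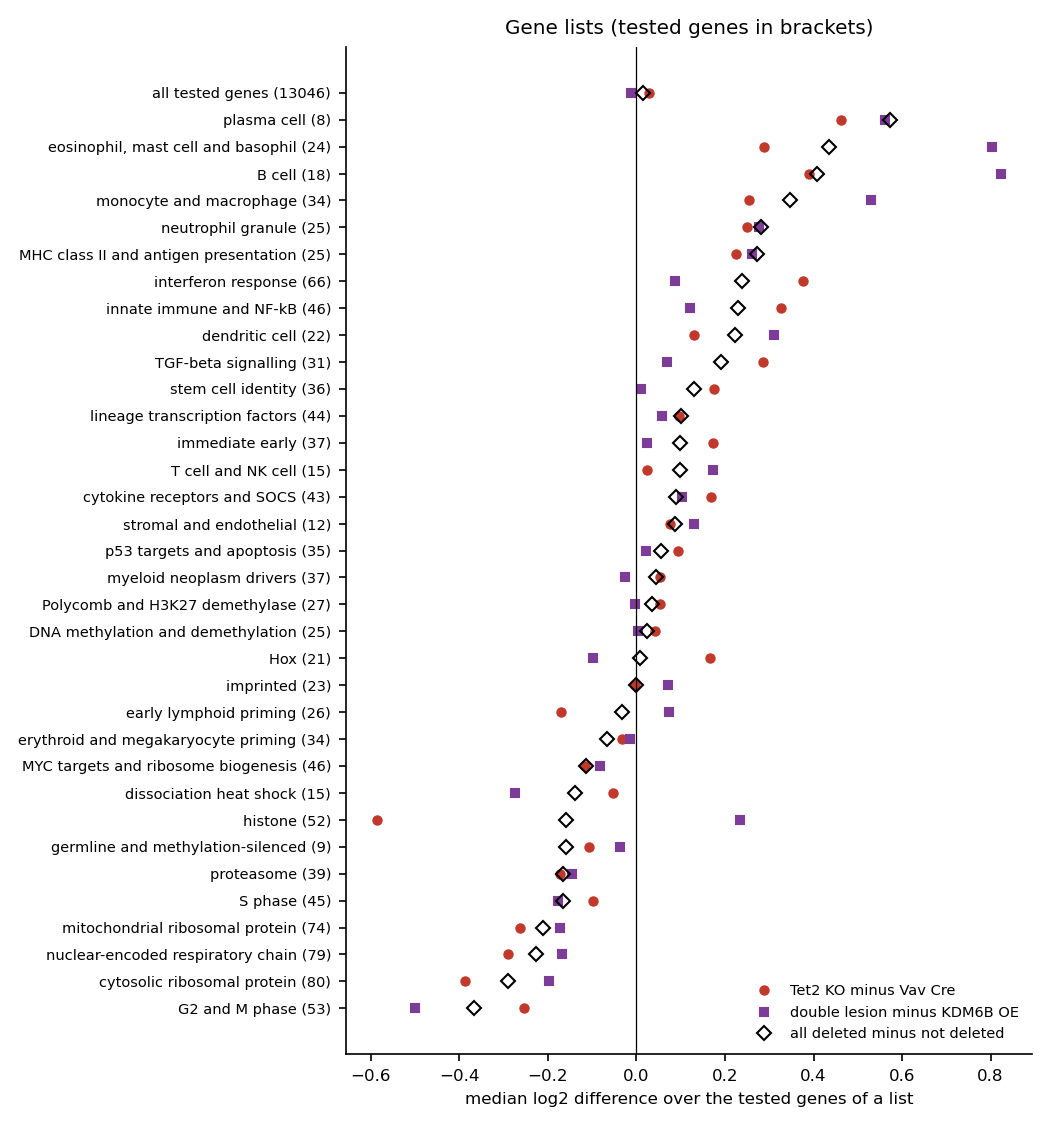
Median log2 difference (x axis) over the tested genes of each of the 34 lists and of all tested genes (y axis, number tested in brackets), as Tet2 KO minus Vav Cre (circles), double lesion minus KDM6B OE (squares) and all deleted minus not deleted (diamonds). Of the lists drawn, the G2 and M phase list lies lowest, at -0.366, and the plasma cell list highest, at 0.573. All tested genes lie at 0.016. The immunity-related GTPase family (median 0.6), put together after its values were seen, is not drawn.

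Myeloid and B lineage genes had positive list medians and no calls. The monocyte and macrophage list had 32 of 34 tested genes positive and a median of 0.347; Cybb, the phagocyte oxidase subunit, averaged 20.7 CPM in deleted libraries and 5.48 CPM in the others (1.56 ± 0.36, limma adjusted p = 0.0768). Over 25 neutrophil granule genes the median was 0.281, and 19 were positive. Mmp8, a neutrophil collagenase, came nearest to the threshold, at 2.70 and 0.63 CPM (1.21 ± 0.24, limma adjusted p = 0.0505). S100a9 (1.54 ± 0.34) and Ltf (1.63 ± 0.36) had a limma adjusted p of 0.0768. Slpi of that list, at a higher level, went the other way, at 24.0 and 40.4 CPM (-0.70 ± 0.25, limma adjusted p = 0.217). The list's sums overlapped, at 3260 to 7983 CPM in deleted libraries and 2898 to 5586 CPM in the others. The list of eosinophil, mast cell and basophil genes had a median of 0.436 over 24 tested genes. Prg2, the eosinophil major basic protein, averaged 919 CPM in deleted libraries and 221 CPM in the others (2.63 ± 0.82, limma adjusted p = 0.166), and 2917 CPM of it stood in double lesion 1. In the B cell list, Fcmr, the IgM Fc receptor, averaged 8.09 and 0.581 CPM (2.25 ± 0.52, limma adjusted p = 0.0768). Jchain of the plasma cell list averaged 1923 and 619 CPM (0.93 ± 0.58, limma adjusted p = 0.467), with 7522 CPM in Tet2 KO 2.

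The stem cell identity list had no called gene among 36, a median of 0.131 and 25 positive genes. Tie1, a receptor tyrosine kinase of endothelial cells and stem cells, averaged 96.4 CPM in deleted libraries and 69.3 CPM in the others (0.50 ± 0.14, limma adjusted p = 0.132), and Hoxa9 91.2 and 115 CPM (-0.31 ± 0.10, limma adjusted p = 0.168). Of 43 cytokine receptor and SOCS genes, none was called; Socs2, a feedback inhibitor of cytokine signalling, averaged 10.1 and 18.1 CPM (-0.71 ± 0.16, limma adjusted p = 0.0768), and Stat3 293 and 235 CPM (0.34 ± 0.09, limma adjusted p = 0.124). The MYC target and ribosome biogenesis list had a median of -0.114 over 46 genes, with no call and Cdk4 at -0.26 ± 0.08 (limma adjusted p = 0.134).

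The machinery of DNA methylation showed no called gene but Tet2 among 25 tested, with a median of 0.023. Zbtb33, a reader of methylated DNA, averaged 4 CPM in deleted libraries and 6.41 CPM in the others (-0.55 ± 0.22, limma adjusted p = 0.266), Mbd2, another such reader, 101 and 111 CPM (-0.14 ± 0.07, limma adjusted p = 0.352), and the methyltransferase gene Dnmt3a 137 and 115 CPM (0.36 ± 0.22, limma adjusted p = 0.454). Imprinted genes, which DNA methylation at imprinting centres controls, had a median of 0 over 23 tested genes and no call. The non-coding Meg3 averaged 12.6 CPM in deleted libraries and 3.97 CPM in the others (1.53 ± 0.32, limma adjusted p = 0.0681), and its neighbour Dlk1 4.26 and 1.78 CPM (0.89 ± 0.23, limma adjusted p = 0.103). Of 36 germline genes known to be silenced by methylation, 9 had enough signal to be tested, and none was called.

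Across the table, the count of called genes depended on single libraries. Leaving out 1 library at a time gave 5 to 51 calls, with 5 called without double lesion 2, 10 without KDM6B OE 3, 11 without double lesion 1, 13 without double lesion 3, 14 without Tet2 KO 2 and 17 without KDM6B OE 2, against 51 without Vav Cre 3. Tet2, Fgf3, Fam102b, Anxa9 and Tgtp2 were called in all 12 of these fits. The calls of Alpk1, Cd1d1 and Mycl held in 11 and were lost without double lesion 2 (limma adjusted p = 0.0536 for all 3). Tgtp1 was called in 10 of the 12, Frrs1 and Trim12c in 9, Lpcat2 and Uchl1 in 8, A930005H10Rik and Gm12185 in 6, Gem in 5, Gm4951, Slc16a11 and Xcr1 in 4, and 2700094K13Rik in 2. The called genes not named in these sentences had an adjusted p of up to 0.117 in such a fit, and all 34 kept their sign in each alternative in which they were tested. With a sex term in the model, 8 of the 34 calls were lost: Cdca3, Cdca8, Cenpm, Clspn, 2700094K13Rik, Acvrl1, H2-Ab1 and Cd1d2. With columns rescaled to equal totals, 39 of 50 calls were higher (78%), and DESeq2 with its own size factors gave 166 of 338 (49.1%), against 23 of 34 (67.6%) on the values as deposited; edgeR called 18, all of them among the 34. The 6 and 6 libraries did not overlap for 88 genes (0.675%), 56 higher (0.429%) and 32 lower (0.245%), among them 21 of the 34 called genes.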

How the data were processed

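RNA was measured in 12 libraries of LSK cells (3 per group). Per the labels' protocols, sorted cells were frozen in Picopure buffer and 10-20 ng of total RNA were made into libraries with SMARTer v4 and Nextera kits, which prime on poly(A) and do not mark strand. Per the submitters' processing notes, TopHat2 2.0.10, HTSeq 0.6.0 and edgeR 3.8.6 were used on mm10; the sources used here do not give the gene annotation or the strand setting. The deposited values are a signal that the authors named edgeR CPM by effective library size; whole reads were recovered for 100% of values (tolerance 1e-06 reads). No gene had fewer than 10 reads in all, and the column totals ran from 947374 to 1076728. The design had foreseen plain CPM, and its test was kept. The test was limma 3.58.1 (R 4.3.3) on log2(CPM + 1) with empirical Bayes (mean trend, additive in Tet2 and transgene, 9 residual degrees of freedom; 4 group means and 8 for the interaction and for single backgrounds) on genes above 1 CPM in at least 3 libraries (2320 genes set aside), with Benjamini-Hochberg adjustment over the table and a threshold of 0.05. Log2 differences understate the change of low genes. Between replicates the chi-square per gene was 17.6 to 89.1, above sampling noise. Limits on counts of 0 cover counting error only. The genes and lists were chosen with earlier results of these data known. The rule for named genes was Tet2 and Kdm6b, the 15 higher and 15 lower called genes of largest difference, every called list member and the 2 to 4 members of smallest p per list described; the other called genes, and members named beyond it, were chosen after their values were seen. Some members that the rule names are not reported here. Lists are described by counts and medians, with no set test. Positions come from GENCODE vM21 (GRCm38; 12931 of the 13046 tested genes matched) and promoters from RefSeq. Alternatives were edgeR 4.0.16 with TMM and DESeq2 1.42.0 on recovered reads, another pseudocount, no filter, equal totals, array weights, a replicate block, a sex term, 4 group means, single backgrounds, each library left out, and, chosen after seeing the data, fits without chromosome 3, without libraries with Y transcripts and without the mean trend. The steps were tested on simulated data.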

Additional observations from a re-analysis of the deposited data

Results flagged for a closer look

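Gaps within an arm of 6 libraries were looked for in 180 arms of 90 named genes, and 9 arms had a library far from the rest. That is 5 in 100 arms, the share that the cut-off gives by chance in independent arms of like libraries. These arms mix libraries with and without the transgene, and many of the genes were chosen by their values. The match with that share therefore decides nothing. Most of the 9 gaps concern genes of chromosome 3 in KDM6B OE 1 and Tet2 KO 3. Anxa9 had 13.1 CPM in Tet2 KO 3, against 4.23 to 5.64 CPM in the other deleted libraries. Frrs1 had 127 CPM in Tet2 KO 3, against 95.1 to 104 CPM in the other deleted libraries, and 129 CPM in KDM6B OE 1, against 148 to 160 CPM in the other libraries without deletion. Fam102b had 48.3 CPM in KDM6B OE 1, against 20.9 to 24.4 CPM in the other libraries without deletion, and Alpk1 33.9 CPM, against 6.83 to 12.4 CPM. Tgtp1 had 57.7 CPM in double lesion 3, against 49.0 to 52.1 CPM in the other deleted libraries. Adgrg5 had 0.369 CPM in KDM6B OE 2, while the other libraries without deletion were at 0. Fcmr had 3.20 CPM in KDM6B OE 2, against 0 to 0.117 CPM. Rps10 had 397 CPM in Vav Cre 2, against 200 to 255 CPM. No gene's Tet2 difference was called as different between the transgene backgrounds by limma.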

How the results depend on the processing

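The total of called genes (34; 23 higher and 11 lower) was 35 with a pseudocount of 0.25, 39 without the filter and 27 with 4 group means (5 lower), and without a mean trend it was 25 (6 lower). It moved by over 1.5 times in the next fits. With edgeR it was 18 (13 higher, 5 lower), with DESeq2 338 (166 and 172), with array weights 153 (91 and 62), in transgene-free libraries alone 0 (0 and 0; 838 genes at an unadjusted p under 0.05), in transgene libraries alone 70 (49 and 21), without chromosome 3 12 (10 and 2), and in the 8 libraries without Y transcripts 0 (0 and 0; 935 unadjusted). Equal column totals gave 50 (39 and 11), and a sex term 45 (34 and 11), which kept 26 of the 34. Leaving out 1 library gave 5 to 51 calls (3 to 39 higher, 2 to 12 lower) and 0 for the interaction, where DESeq2 called 5. Tet2 kept its direction and was not past the threshold in transgene-free libraries alone (-1.57, adjusted p = 0.214) and in the 8 libraries without Y transcripts (-1.44, adjusted p = 0.0838), both limma. Mouse Kdm6b, not called, changed sign with array weights (0.01) and in transgene libraries alone (0.05). The causes were not tested, apart from fewer libraries or genes where these were left out. As to pairing, same-numbered libraries correlated in their deviations at -0.149 to 0.388, over 0.1 in 10 of 18 pairs (0.3 to 0.34 between Tet2 KO and Vav Cre, 0.035 to 0.167 between double lesion and KDM6B OE). As not every pair was over 0.1 and no label names a shared source, the numbers were not taken to pair samples, although 8 of 12 libraries correlated best with their own number; a replicate block gave 156 calls (82 higher, 74 lower), all 34 among them. Depth limits genes near 0.139 CPM, such as Adgrg5 and Ffar4.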
